A study of Mus musculus with 25 samples.

Results

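Sox2, Sox9, S100b, Hes1, Notch2 and Gfra2 were followed in the pituitaries of 25 hpg mice. These 6 genes mark or act in the stem cells and folliculostellate cells of the gland, the cells that make no classical pituitary hormone. They were taken by symbol from the 47069 rows of the expression table, with the row of highest mean where a symbol had several, and all 6 passed the filter that left 19141 genes for testing. The groups were 6 GnRH females, 5 placebo females, 8 GnRH males and 6 placebo males. The design text of the series states 5 to 7 replicates in a condition, while the labels put 8 animals in the GnRH male group, and the groups here follow the labels. All animals were hpg/hpg, a genotype that lacks gonadotropin-releasing hormone (GnRH) of its own, so the placebo animals had none. GnRH animals had 1 µg of the peptide intraperitoneally each day for 10 days, placebo animals saline, and pituitaries were taken 1 h after the last injection. The labels give neither age nor strain. Each library was made from homogenized pituitary tissue, and the labels say neither whether the lobes were parted nor whether glands were pooled. The question behind the series, by its title, concerns ATF3 and follicle-stimulating hormone. For the 6 genes the design asks whether their transcripts differ after 10 days of GnRH, and whether they differ between the sexes.

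SOX2 is a transcription factor of the SOX family with an HMG box, and it marks the multipotent stem cells that line the remnant of the pituitary cleft. SOX9, a relative of it, is found in part of these cells, and S100B, a calcium-binding protein, marks folliculostellate cells and also glia and Schwann cells. The Notch pathway passes signals between touching cells. A ligand of the Delta or Jagged type on one cell leads to cleavage of a receptor such as NOTCH2 on the next, and the freed intracellular domain joins the DNA-binding protein RBPJ and switches on repressors such as HES1, which hold progenitors back from differentiation. GFRA2 is the co-receptor for neurturin, a ligand of the GDNF family that signals through the kinase RET, and it is used as a marker of a pituitary progenitor niche.

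In the GRCm38 build, with GENCODE M21 annotation, all 6 lie on the plus strand and are protein-coding. Sox2 is at chr3:34650405-34652461 and Notch2 on the same chromosome at chr3:98013527-98150361. Sox9 is at chr11:112782224-112787760, S100b at chr10:76253853-76261159, Hes1 at chr16:30064384-30067796 and Gfra2 at chr14:70890120-70979838. The promoter windows of Sox2, S100b and Notch2 are printed here because these were the ones available. In what follows, Sox2 varied with other stem cell genes, S100b with myelin genes, and Notch2, like Gfra2, with transcript length. Each window runs from 250 bases before to 50 after the RefSeq start in GRCm38.p6. RefSeq and GENCODE place the start of a gene at different bases. The Sox2 window, which ends at 34650044, thus lies wholly before the GENCODE start at 34650405. The RefSeq table used here gave windows for 3 of the 6 genes, and Sox9, Hes1 and Gfra2 are named only. Capitals mark matches on either strand to ACAAAG, a core bound by SOX factors, TGGGAA, a core bound by RBPJ, and GGGCGG, the GC box, and no match overlaps another.
Sox2, chr3:34649745-34650044, plus strand: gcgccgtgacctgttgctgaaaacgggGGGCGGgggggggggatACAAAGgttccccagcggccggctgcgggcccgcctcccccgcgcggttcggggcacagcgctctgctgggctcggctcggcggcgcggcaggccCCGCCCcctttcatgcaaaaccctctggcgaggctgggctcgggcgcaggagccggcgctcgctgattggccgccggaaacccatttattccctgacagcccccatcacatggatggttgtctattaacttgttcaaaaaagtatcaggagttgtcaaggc
S100b, chr10:76253586-76253885, plus strand: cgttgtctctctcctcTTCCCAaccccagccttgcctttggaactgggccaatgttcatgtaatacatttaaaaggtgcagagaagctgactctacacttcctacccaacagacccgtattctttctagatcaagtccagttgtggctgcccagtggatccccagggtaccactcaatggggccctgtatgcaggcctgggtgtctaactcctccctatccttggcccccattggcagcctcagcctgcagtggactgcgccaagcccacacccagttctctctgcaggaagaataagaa
Notch2, chr3:98013288-98013587, plus strand: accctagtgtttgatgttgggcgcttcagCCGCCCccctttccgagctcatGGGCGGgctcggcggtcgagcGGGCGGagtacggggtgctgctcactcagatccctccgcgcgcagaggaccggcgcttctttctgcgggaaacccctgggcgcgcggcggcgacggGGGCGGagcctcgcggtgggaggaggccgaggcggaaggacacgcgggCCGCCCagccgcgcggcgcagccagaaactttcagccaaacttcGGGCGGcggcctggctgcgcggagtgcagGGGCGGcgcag
Sox2 held 1 SOX core and 2 GC boxes, S100b 1 RBPJ core on the minus strand, and Notch2 7 GC boxes. Of 32851 promoter windows of the same length, 18.7% held the SOX core, 25.6% the RBPJ core and 35.7% a GC box. The GC content was 66.3% for Sox2, 53.7% for S100b and 73.0% for Notch2, against a median of 52.7% over all windows. The windows of Sox2, S100b and Notch2 held 27, 3 and 41 CpG pairs, against a median of 7. These matches describe the letters only.

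Values are regularized log2 values as deposited. The transformation shrinks each gene towards its own mean, most of all where reads are few, which understates differences of weakly expressed genes. The depth of the libraries is unknown. Hormone transcripts were at the top of the scale, with Gh at a mean of 21.45, Pomc, made in both the anterior and the intermediate lobe, at 18.50 and Prl at 17.40. Posterior lobe transcripts were present at lower values, among them Avp at 6.51 and Oxt at 7.06. Fshb, the beta subunit of follicle-stimulating hormone, was higher with GnRH by 2.07 in females and 2.77 in males (limma, adjusted p = 0.000347 and 1.52e-07).

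Per kilobase of exonic length, with the log2 of the length in kb subtracted, Sox2 had the highest level of the 6 at 8.52. Sox9 at 6.92, Notch2 at 6.87 and Hes1 at 6.87 lay close together, and Gfra2 at 4.99 and S100b at 4.64 were lowest. These are means over 25 libraries, on a log2 scale per kb. Exonic lengths were 2.06 kb for Sox2, 4.13 kb for Sox9, 10.8 kb for Notch2, 2.04 kb for Hes1, 3.54 kb for Gfra2 and 1.48 kb for S100b. They are those of GENCODE M21.

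None of the 6 genes passed the test of GnRH against placebo in either sex, and none passed the test between males and females. Sox2, Sox9, Notch2 and Gfra2 had slightly lower means with GnRH in both sexes, and S100b and Hes1 slightly higher means. The largest of these differences was that of Hes1 in females, 0.27 on the log2 scale, a fold of 1.20. In bulk tissue, fewer cells of a type and less RNA per cell cannot be told apart. The counts were 0 of 6 genes in females, where 0.0993% of all genes tested passed, 0 of 6 in males, where 0.496% passed, and 0 of 6 in the GnRH effect averaged over the sexes, where 1.71% passed. At an unadjusted p under 0.05 there was 1 of 6 in females (Hes1), 0 of 6 in males and 0 of 6 in the averaged effect, against 9.57%, 6.42% and 12% of all genes. With so few genes called at all, a count of 0 among 6 lies near the background. Exact permutation tests of each gene within each sex, 12 in all, gave 0 below 0.05. That test was run on the 6 genes only, so no share over all genes stands beside its count.

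**Figure D1:**
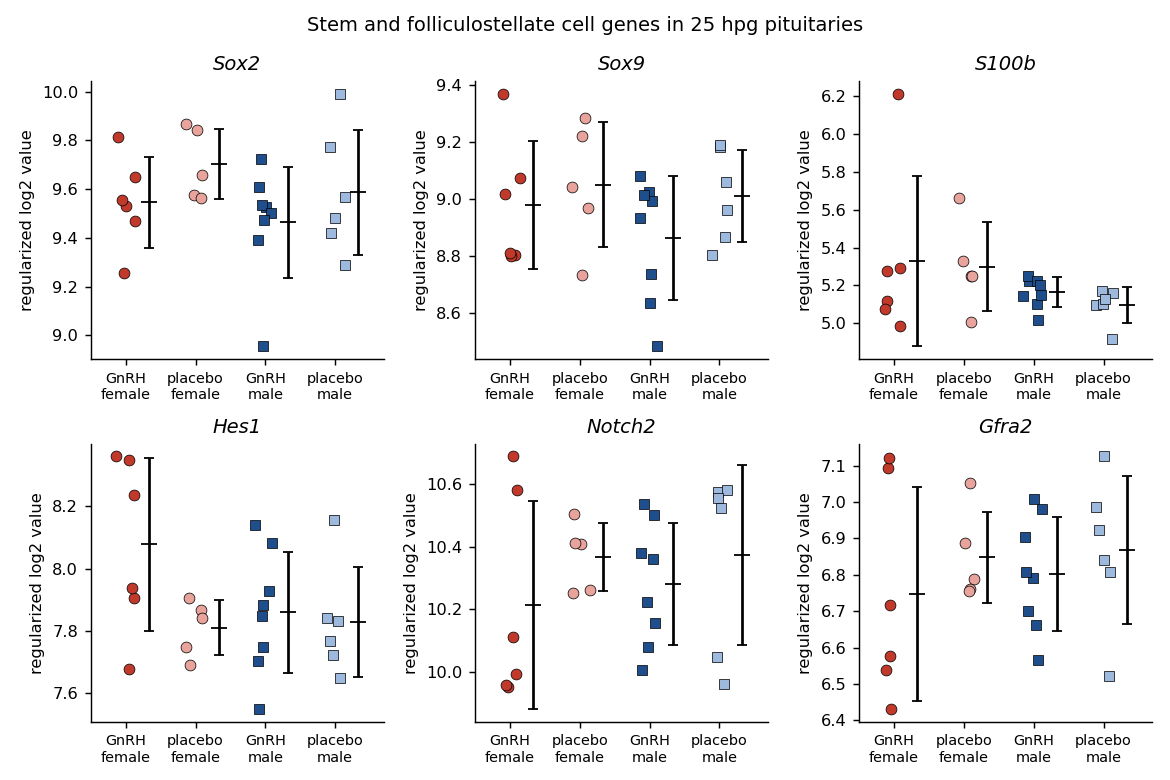
Regularized log2 value (y axis, a separate range for each gene) of 6 genes in each animal, by group (6 GnRH females, 5 placebo females, 8 GnRH males, 6 placebo males), with 1 point per animal and the mean and SD beside the points. The ranges of GnRH and placebo animals overlap for every gene in both sexes, and S100b has a single GnRH female at 6.21, far above the rest.

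Sox2 had values of 9.26, 9.54 and 9.81 in GnRH females as the lowest, median and highest, against 9.66, 9.58, 9.84, 9.87 and 9.57 in the 5 placebo females. In 4 of 6 GnRH females it lay below every placebo female, and the other two were inside the placebo range. The mean was 9.55 ± 0.19 in GnRH females and 9.70 ± 0.14 in placebo females (SD, n = 6 and 5), a difference of -0.16 (SE 0.12, 95% interval -0.40 to 0.09, limma adjusted p = 0.686, exact permutation p = 0.143). In males the lowest, median and highest were 8.95, 9.51 and 9.72 with GnRH and 9.29, 9.52 and 9.99 with placebo. All but 1 of the 8 GnRH males were inside the placebo range, the exception being male 24 at 8.95. The male means were 9.46 ± 0.23 with GnRH and 9.59 ± 0.26 with placebo (SD, n = 8 and 6), a difference of -0.12 (SE 0.11, 95% interval -0.34 to 0.09, limma adjusted p = 0.999). Averaged over the sexes the difference was -0.14 (95% interval -0.30 to 0.02, adjusted p = 0.498).

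Sox9 had its lowest, median and highest values at 8.80, 8.91 and 9.37 in GnRH females, and 9.04, 8.74, 9.28, 9.22 and 8.97 in the placebo females. Of the 6 GnRH females, 5 lay inside the placebo range and female 9 above it. The female means were 8.98 ± 0.23 with GnRH and 9.05 ± 0.22 with placebo (SD, n = 6 and 5), a difference of -0.07 (SE 0.12, 95% interval -0.31 to 0.17, limma adjusted p = 0.862). GnRH males had 8.48, 8.96 and 9.08 and placebo males 8.81, 9.01 and 9.19, with 3 of 8 GnRH males below every placebo male. These were males 19, 23 and 24, at 8.64, 8.48 and 8.74. The mean of 10 posterior lobe markers was also lowest in these among GnRH males, at 6.84, 7.11 and 7.37. In placebo males that mean ran from 7.38 to 7.65. Over 25 animals, less group means, Sox9 and that mean had r = 0.52 (permutation p = 0.0141, adjusted p = 0.111). Without the 2 farthest animals r was 0.32. Among GnRH males, 2 other list means were also lowest in males 19, 23 and 24. The 9 pericyte and fibroblast markers had 9.23, 9.29 and 9.23 there. The 29 other stem and folliculostellate cell genes had 9.36, 9.28 and 9.29. Sox9 had r = 0.29 with the first mean and 0.39 with the second (adjusted permutation p = 0.444 and 0.296). The part of the posterior lobe or of these other cells in Sox9 was not tested. The male difference of Sox9 was -0.15 (SE 0.10, 95% interval -0.36 to 0.06, limma adjusted p = 0.975).

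S100b differed less between treatments than between single animals. Its lowest, median and highest values in GnRH females were 4.99, 5.20 and 6.21, against 5.01, 5.25, 5.25, 5.33 and 5.66 in the placebo females. Female 6 of the GnRH group, at 6.21, was the highest of all 25 animals, and the placebo female 5, at 5.66, came next. The means were 5.33 ± 0.45 in GnRH females and 5.30 ± 0.23 in placebo females (SD, n = 6 and 5), a difference of 0.03 (SE 0.14, 95% interval -0.25 to 0.31, limma adjusted p = 0.957). Without female 6 the difference was -0.15 (adjusted p = 0.713), and the difference averaged over the sexes was -0.04, where it was 0.05 with all animals. Males spread far less, with 5.01, 5.18 and 5.25 with GnRH and 4.92, 5.12 and 5.17 with placebo. The male means of 5.16 ± 0.08 with GnRH and 5.10 ± 0.09 with placebo (SD, n = 8 and 6) differed by 0.07 (95% interval -0.18 to 0.32, limma adjusted p = 0.999). That interval rests on a spread shared by the 4 groups (SD within groups 0.25), wider than that of the males alone. The exact permutation test within males gave p = 0.178. Above every placebo male lay 4 of 8 GnRH males.

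Hes1, the Notch-driven repressor, had 7.68, 8.09 and 8.36 as the lowest, median and highest in GnRH females, against 7.69, 7.87, 7.91, 7.84 and 7.75 in the placebo females. Above every placebo female lay 4 of 6 GnRH females, while female 11 lay below all of them. Its mean was 8.08 ± 0.28 in GnRH females and 7.81 ± 0.09 in placebo females (SD, n = 6 and 5). The difference of 0.27 had an SE of 0.11 and a 95% interval of 0.04 to 0.50, and did not pass the adjustment (limma, unadjusted p = 0.0253, adjusted p = 0.465, exact permutation p = 0.0823). Leaving out 1 female at a time gave differences between 0.21 and 0.35. In males the values were 7.55, 7.87 and 8.14 with GnRH and 7.65, 7.80 and 8.16 with placebo, a difference of 0.03 (95% interval -0.17 to 0.24, limma adjusted p = 0.999). The male effect minus the female effect was -0.24 (SE 0.15, unadjusted p = 0.131, adjusted p = 0.999), so a difference between the sexes in the response of Hes1 was not shown. For the difference between the sexes in the response, 0 of 6 genes passed and 0% of all genes did.

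Notch2, the receptor, split the GnRH females. Their values, for females 6 to 11, were 10.11, 9.95, 10.58, 10.69, 9.99 and 9.96, against 10.41, 10.25, 10.26, 10.51 and 10.41 in the placebo females. None of the GnRH females lay inside the placebo range, with females 8 and 9 above it and the other 4 below it. The means were 10.21 ± 0.33 in GnRH females and 10.37 ± 0.11 in placebo females (SD, n = 6 and 5), a difference of -0.15 (SE 0.14, 95% interval -0.43 to 0.12, limma adjusted p = 0.726). In males all 8 GnRH values lay inside the placebo range, with 10.01, 10.29 and 10.54 with GnRH and 9.96, 10.54 and 10.58 with placebo. The male difference was -0.09 (SE 0.12, 95% interval -0.34 to 0.15, limma adjusted p = 0.999).

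Gfra2, the neurturin co-receptor, split the GnRH females in the same way. Females 6 to 11 had 6.43, 6.54, 7.09, 7.12, 6.58 and 6.72, against 6.89, 6.79, 6.76, 7.05 and 6.75 in the placebo females. Again females 8 and 9 lay above the placebo range and the other 4 below it. The female means were 6.75 ± 0.29 with GnRH and 6.85 ± 0.13 with placebo (SD, n = 6 and 5), a difference of -0.10 (SE 0.12, 95% interval -0.34 to 0.13, limma adjusted p = 0.796). Males had 6.57, 6.80 and 7.01 with GnRH and 6.52, 6.88 and 7.13 with placebo, a difference of -0.06 (SE 0.10, 95% interval -0.28 to 0.15, limma adjusted p = 0.999).

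**Figure D2:**
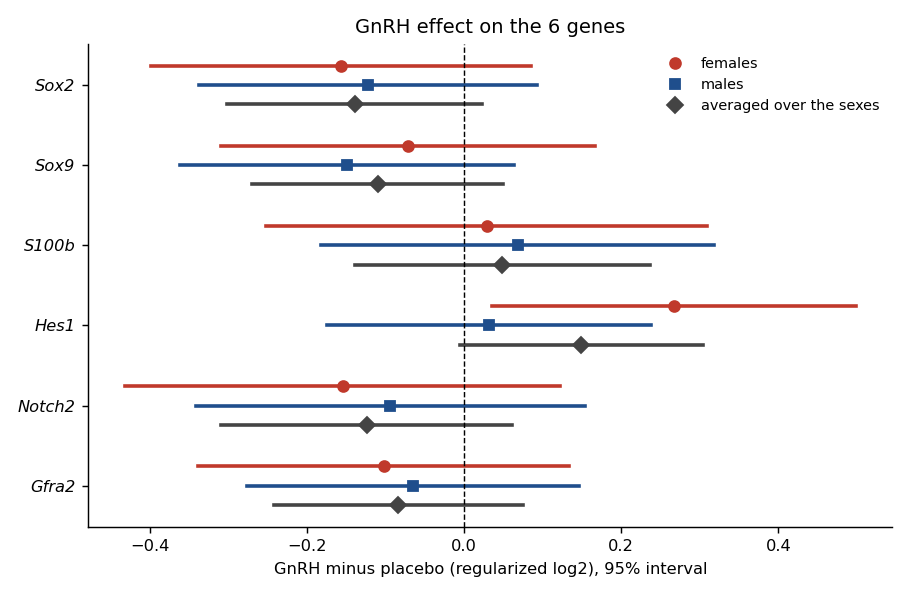
Difference between GnRH and placebo on the regularized log2 scale (x axis) with its 95% interval from limma, for 6 genes (rows) in females, in males and averaged over the sexes. Every interval includes 0 apart from that of Hes1 in females, 0.04 to 0.50, which did not pass the adjustment over 19141 genes.

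Between the sexes, 0 of 6 genes passed within GnRH, where 0.0522% of all genes passed, and 0 of 6 within placebo, where 0.047% passed, by limma. At an unadjusted p under 0.05 there was 1 of 6 within GnRH and 0 of 6 within placebo, against 5.53% and 3.07% of all genes. Hes1 had the smallest unadjusted p, with a difference of -0.22 between GnRH males and GnRH females (95% interval -0.42 to -0.01, limma unadjusted p = 0.0397, adjusted p = 0.878). S100b had differences between males and females of -0.16 with GnRH and -0.20 with placebo, neither past the threshold (limma adjusted p = 0.931 and 0.999). For Sox2 and Sox9, GnRH males had the lowest group mean, then GnRH females, placebo males and placebo females. The 4 group means of a gene spanned 0.12 for Gfra2, 0.16 for Notch2, 0.19 for Sox9, 0.23 for S100b, 0.24 for Sox2 and 0.27 for Hes1. The SD within groups lay between 0.20 and 0.25, and each gap between neighbours in the order was smaller than it, apart from that between GnRH females and GnRH males for Hes1, which was 0.22 against an SD of 0.20. The spread of these genes was also wider than that of most. The SE of their female difference lay between 0.113 and 0.137, against a median of 0.0706 over all genes tested.

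How the 6 genes varied together was measured over the 25 animals, with each group's mean removed, in 15 pairs. Only Notch2 and Gfra2 passed the adjustment over the 15 pairs, with Pearson's r = 0.76 (permutation within groups, n = 25, p = 0.000790, adjusted p = 0.0118) and Spearman's rho = 0.71 (permutation p = 0.000940, adjusted p = 0.0141). Without animals 9 and 15, which lie farthest out for Notch2, r was 0.66 and its adjusted permutation p was 0.114, so the call rests on those 2 animals. Sox2 and Sox9 had r = 0.40 (permutation p = 0.0578, adjusted p = 0.173). Sox2 had r = 0.46 with Hes1 and 0.47 with Notch2, and Sox9 had r = 0.45 with Notch2, each with an adjusted permutation p of 0.126. Sox2 and S100b, often used together as markers, had r = -0.04 (permutation p = 0.827).

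Each gene was then set beside the mean of lists of related genes and of markers of other cells, and beside a length index of each library, 126 relations in all. Sox2 varied with the mean of the 29 other stem and folliculostellate cell genes tested, with r = 0.69 (permutation p = 0.000310, adjusted p = 0.00651) and rho = 0.68 (permutation p = 0.000490, adjusted p = 0.0123), and r was 0.64 without the 2 farthest animals. For Sox9 the same relation had r = 0.39 and for S100b r = 0.17 (adjusted permutation p = 0.296 and 0.597). Notch2 varied with the mean of 36 other Notch pathway genes, with r = 0.81 (permutation p = 2e-05, adjusted p = 0.00252) and rho = 0.81 (permutation p = 9e-05, adjusted p = 0.00567), and r was 0.74 without the 2 farthest animals. Sox9 varied with the same mean, with r = 0.70 (permutation p = 0.000220, adjusted p = 0.00651) and rho = 0.63 (permutation p = 0.00185, adjusted p = 0.0388), and r was 0.68 without the 2 farthest animals. Gfra2 passed with it by rank only, with r = 0.61 (adjusted permutation p = 0.0770) and rho = 0.62 (adjusted permutation p = 0.0484), and r was 0.48 without the 2 farthest. For Notch2 and Gfra2 such values were not particular to the Notch pathway. Single genes with r of at least 0.8 numbered 605 for Notch2 and 101 for Gfra2. With the length index, described below, r was 0.86 and 0.78. The part of that index in the relations with the Notch list was not tested. Sox2 also varied with the mean of 14 HES-related repressors, TLE co-repressors, ID proteins and bHLH factors, with r = 0.70 (permutation p = 0.000250, adjusted p = 0.00651) and rho = 0.70 (permutation p = 0.000460, adjusted p = 0.0123), and r was 0.64 without the 2 farthest. For Notch2 this relation had r = 0.64 (adjusted permutation p = 0.0436) and rho = 0.63 (adjusted permutation p = 0.0484), and r was 0.68 without the 2 farthest. This value of Notch2 was not particular to the list either, and the part of the length index in it was not tested. Sox2 ran against the mean of 4 thyrotrope markers by rank only, with r = -0.55 (adjusted permutation p = 0.0846) and rho = -0.59 (adjusted permutation p = 0.0484). Differences between the genes in these relations were not tested. Both sides of each relation come from the same libraries.

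S100b was highest in the animals with the most transcript of Schwann cells, the myelinating glia of peripheral nerves, which also make S100B. Over the 25 animals S100b and the mean of 9 Schwann cell and glial markers had r = 0.83 (permutation p = 0.00532, adjusted p = 0.0745) and rho = 0.67 (permutation p = 0.00356, adjusted p = 0.0484). Without animals 5 and 6 r was 0.52, so much of the relation rests on those 2 animals. GnRH female 6 had the highest value of all 25 animals for 7 of the 9 markers. Mbp, myelin basic protein, was 11.54 in GnRH female 6 and 11.09 in placebo female 5, where the lowest, median and highest of the other 23 animals were 9.65, 9.83 and 10.43. Prx, the periaxin of myelinating Schwann cells, was 7.54 in GnRH female 6 and 7.31 in placebo female 5, against 5.06, 5.34 and 6.77 in the others. Pmp22, Sox10 and Cdh19 were also highest in GnRH female 6, whereas Ngfr, a neurotrophin receptor, and Erbb3, the neuregulin receptor, ranked 15 and 19 there. Foxd3 lay below the filter.

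Means of the Schwann list ranged from 7.27 to 8.65 in GnRH females, from 7.11 to 8.36 in placebo females, from 7.26 to 7.47 in GnRH males and from 7.28 to 7.42 in placebo males. The high values were thus in females of both treatments. By limma, 0 of 9 genes of the list passed in the averaged effect of GnRH, against 1.71% of all genes. At an unadjusted p under 0.05 there were 0 of 9, against 12% of all genes. After females 6 and 5, GnRH female 7 came next, with a list mean of 8.05 and S100b at 5.29. Females 5 and 6 stood out in other lists too. GnRH female 6 had the highest mean of all 25 animals for pericyte and fibroblast markers (9.79) and proliferation genes (7.18). It was also highest for other SOX factors, Sox10 among them (7.08). Placebo female 5 had the highest mean of blood markers (12.6). The part of the Schwann cell markers or of these other lists in the value of S100b in females 5 and 6 was not tested.

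**Figure D3:**
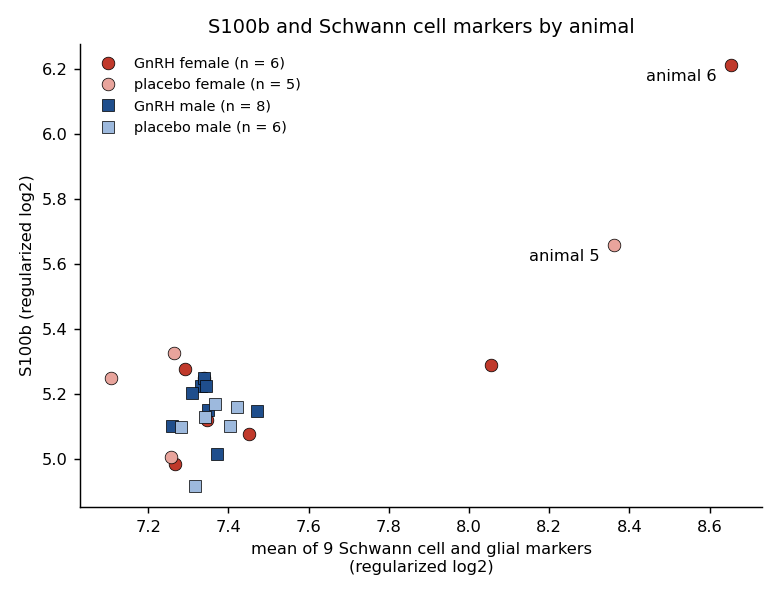
S100b (y axis, regularized log2) against the mean of 9 Schwann cell and glial markers (x axis, regularized log2), with 1 point per animal, coloured by group. GnRH female 6 and placebo female 5 stand apart at list means of 8.65 and 8.36, and among the remaining animals GnRH female 7 has a list mean of 8.05 with S100b at 5.29.

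Notch2 and Gfra2 varied with the balance of long and short transcripts in each library. The index used was the mean of 1507 protein-coding genes whose longest transcript is at least 6.85 kb minus the mean of 1510 whose longest transcript is at most 1.42 kb. Notch2, with a longest transcript of 10.5 kb, is itself 1 of the long genes, and Gfra2, at 3.47 kb, is in neither set. Notch2 had r = 0.86 with the index (permutation p = 5e-05, adjusted p = 0.00315) and rho = 0.82 (permutation p = 8e-05, adjusted p = 0.00567), and r was 0.81 without the 2 farthest animals. Gfra2 had r = 0.78 (permutation p = 0.000310, adjusted p = 0.00651) and rho = 0.76 (permutation p = 0.000240, adjusted p = 0.0101), and r was 0.67 without the 2 farthest. For Hes1, a short transcript of 1.47 kb, r was -0.40 (adjusted permutation p = 0.355).

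The index was 1.57, 1.57, 1.87, 1.97, 1.46 and 1.62 in GnRH females 6 to 11, against 1.86, 1.65, 1.72, 1.81 and 1.80 in the placebo females. The same females, 8 and 9, lay above the placebo range and the other 4 below it, as for Notch2 and Gfra2. In males it ran from 1.58 to 1.84 with GnRH and from 1.57 to 1.90 with placebo. With the index taken out of both genes, r between Notch2 and Gfra2 was 0.28 (permutation p = 0.244). With the index as a covariate, a fit chosen after the data were seen, the female difference was -0.01 for Notch2 and 0.01 for Gfra2 (limma adjusted p = 0.987 and 0.982), and that of Hes1 was 0.21 (adjusted p = 0.548). Still 0 of 6 genes passed in any contrast under that fit. The index was measured in the same libraries, after treatment, so the fit cannot tell an effect of GnRH from one of the index. What set the index was not tested.

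**Figure D4:**
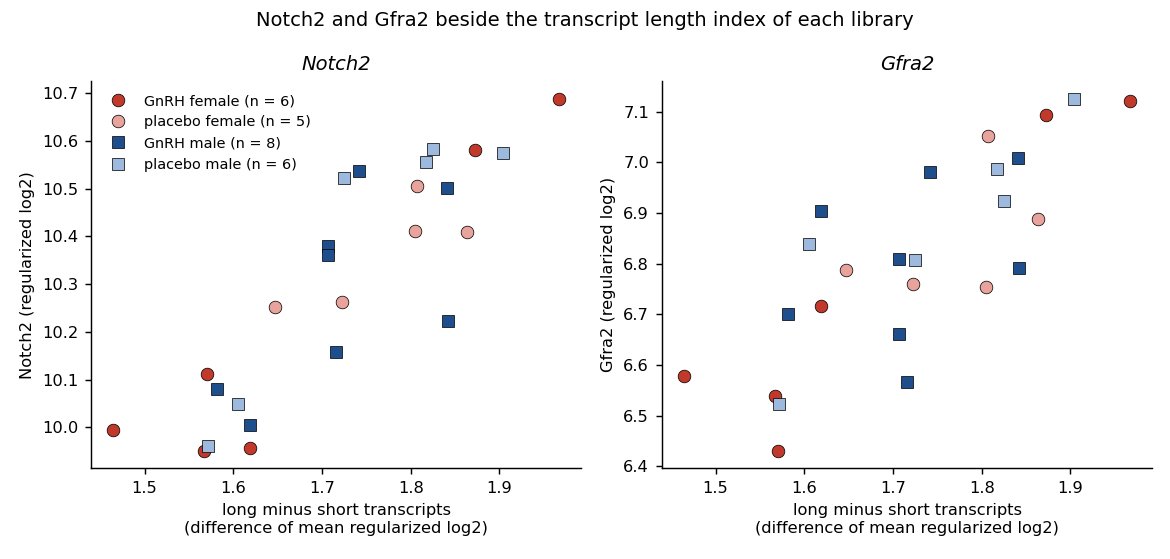
Notch2 (left) and Gfra2 (right) on the y axes (regularized log2) against the length index of each library (x axis, mean of long minus mean of short transcripts, regularized log2), with 1 point per animal, coloured by group. Both genes are higher in libraries with a higher index, and GnRH females 8 and 9 lie at the upper end.

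The 4 genes most like each of the 6 were taken as those with the highest r over the 25 libraries after removal of group means. They were Plch1, Stxbp6, Bhlhe22 and Fam110c for Sox2, with r between 0.78 and 0.82. For Sox9 they were Ttc30a2, Mmp15, Srebf1 and Tmem132c, with r between 0.76 and 0.79, and for Hes1 Tmem189, Sod3, Tagln2 and Fxyd1, with r between 0.74 and 0.78. For S100b they were Slc36a2, Gjb6, Mbp and Fam178b, with r between 0.86 and 0.89, of which Mbp is in the Schwann list. Without animals 5 and 6 these 4 had r between 0.53 and 0.68. For Notch2 they were Neo1, Ptprf, Cntn1 and Tenm3, with r between 0.95 and 0.96, and for Gfra2 Gtf3c4, Ccdc8, Fbxo38 and Virma, with r between 0.85 and 0.87. At r of at least 0.8 there were 605 genes for Notch2, 101 for Gfra2, 20 for S100b, 1 for Sox2 and 0 for Sox9 and Hes1. The median longest transcript of the 200 genes most like each was 6.14 kb for Gfra2, 5.60 kb for Notch2, 4.11 kb for Sox9, 3.94 kb for Sox2, 2.90 kb for S100b and 2.02 kb for Hes1, against 2.96 kb over all genes tested.

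Among the other stem and folliculostellate cell genes, 2 of 29 rose with GnRH and 0 fell in the effect averaged over the sexes, where 1.42% of all genes rose and 0.287% fell. The median difference of the 29 was 0.05, against -0.00088 over all genes tested. Krt8 and Krt18, which encode the keratin pair of simple epithelia, were the genes that rose. Krt18 averaged 10.77 ± 0.08 in GnRH females and 10.38 ± 0.15 in placebo females (SD, n = 6 and 5), and 10.77 ± 0.23 in GnRH males and 10.42 ± 0.11 in placebo males (SD, n = 8 and 6). Its averaged difference was 0.37 (SE 0.06, limma adjusted p = 0.000828), and in males alone it was 0.35 (adjusted p = 0.0441), a call that was lost on leaving out any 1 of 10 of the 14 males (highest adjusted p = 0.123) and under 4 other settings, with adjusted p between 0.0531 and 0.119. Krt8 averaged 10.55 ± 0.32 in GnRH females and 10.00 ± 0.19 in placebo females (SD, n = 6 and 5), and 10.61 ± 0.41 in GnRH males and 10.07 ± 0.15 in placebo males (SD, n = 8 and 6), an averaged difference of 0.54 (SE 0.11, adjusted p = 0.00605). Cd24a, a small surface glycoprotein, had an averaged difference of -0.30 that did not pass (adjusted p = 0.180). Ednrb and Cdh1, an endothelin receptor and the epithelial cadherin, had -0.08 and 0.11 (limma adjusted p = 0.717 and 0.739).

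In the Notch pathway, 2 of 36 genes rose and 1 fell in the averaged effect, against 1.42% and 0.287% of all genes, with a median difference of 0.02, against -0.00088 over all genes tested. Dll4, a Delta-type ligand of endothelial cells, averaged 6.84 ± 0.11 in GnRH females and 6.55 ± 0.16 in placebo females (SD, n = 6 and 5), and 6.81 ± 0.23 in GnRH males and 6.58 ± 0.03 in placebo males (SD, n = 8 and 6). Its difference of 0.26 (SE 0.06, limma adjusted p = 0.0286) lost its call when animal 1, 5, 6, 11 or 14 was left out (highest adjusted p = 0.0693), and without the filter on low values (adjusted p = 0.0608). Notch4, a receptor found mainly in endothelium, rose by 0.16 (SE 0.04, adjusted p = 0.0238), a call lost without animal 12 or 13 (highest adjusted p = 0.0520). Dtx1, a ubiquitin ligase that modulates Notch signalling, fell by 0.17 (SE 0.04, adjusted p = 0.0336), a call lost on leaving out any 1 of 15 of the 25 animals (highest adjusted p = 0.0843), and without the filter (adjusted p = 0.0616). Other receptors and ligands did not pass: Notch1 had 0.03, Notch3 0.09, Jag1 0.04 and Dll1 0.04. The HES and HEY targets of the pathway did not pass either, with Hes6 at -0.17 (adjusted p = 0.0956), Hey1 at 0.15, Heyl at 0.14 and Hey2 at -0.06, and Hes5 lay below the filter.

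Of 8 endothelial markers, 3 rose in the averaged effect and 0 fell, against 1.42% and 0.287% of all genes. In males 1 of 8 passed and in females 0 of 8, against 0.496% and 0.0993% of all genes. The median averaged difference of the 8 markers was 0.21, against -0.00088 over all genes tested. Tie1 rose by 0.30, Emcn by 0.25 and Plvap by 0.18 (limma adjusted p = 0.00220, 0.00289 and 0.0238), the last a call lost without animal 1 or 6 (highest adjusted p = 0.0602) and under quantile normalization (adjusted p = 0.0514). The mean of the 8 markers lay between 9.46 and 9.76 in GnRH females, 9.31 and 9.50 in placebo females, 9.35 and 9.78 in GnRH males, and 9.37 and 9.50 in placebo males, and none of the 8 was at 0. Their part in the values of Dll4 and Notch4 was not tested.

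Among the HES-related repressors, TLE co-repressors, ID proteins and bHLH factors, 4 of 14 genes rose and 0 fell, where 1.42% of all genes rose and 0.287% fell. The median difference of the 14 was 0.13, against -0.00088 over all genes tested. Id1, an inhibitor of bHLH factors that responds to bone morphogenetic proteins, averaged 8.65 ± 0.19 in GnRH females and 8.10 ± 0.33 in placebo females (SD, n = 6 and 5), and 8.48 ± 0.32 in GnRH males and 7.99 ± 0.34 in placebo males (SD, n = 8 and 6). Its averaged difference was 0.52 (SE 0.11, limma adjusted p = 0.00842). Id3 rose by 0.36 (SE 0.09, adjusted p = 0.0345), a call lost on leaving out any 1 of 13 of the 25 animals (highest adjusted p = 0.0834), without the filter and with array weights (adjusted p = 0.0941 and 0.0514). Id2 and Id4 had 0.11 and -0.11, neither past the threshold. Neurod1, a bHLH factor of corticotropes, rose by 0.39 averaged over the sexes (SE 0.07, adjusted p = 0.00185) and by 0.46 in males (adjusted p = 0.0171), the male call being lost without animal 14 or 16 (highest adjusted p = 0.0570), and without the filter (adjusted p = 0.0524).

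Of the other SOX factors, 1 of 13 rose and 0 fell, against 1.42% and 0.287% of all genes, with a median difference of 0.0017, against -0.00088 over all genes tested. Sox13, a SoxD-group factor, averaged 10.10 ± 0.20 in GnRH females and 9.71 ± 0.29 in placebo females (SD, n = 6 and 5), and 10.15 ± 0.17 in GnRH males and 9.80 ± 0.24 in placebo males (SD, n = 8 and 6). Its averaged difference was 0.37 (SE 0.08, limma adjusted p = 0.0139), and it stayed past the threshold when each animal was left out in turn. Sox6, of the same group, had -0.15 (adjusted p = 0.159) and Sox30 -0.06 (adjusted p = 0.265). Sox17 and Sox18, endothelial SOX factors, had 0.06 and 0.14 (adjusted p = 0.650 and 0.565).

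None of the 9 genes tested among other S100 genes and Ager, a receptor for S100 proteins, passed by limma, 2 had an unadjusted p under 0.05, against 12% of all genes, and their median difference was 0.02. S100a11, S100a6 and S100a13, calcium-binding relatives of S100b, had 0.15, 0.17 and 0.09 (limma adjusted p = 0.368, 0.402 and 0.470). None of the 7 genes tested among GDNF family ligands and their receptors passed either, 0 had an unadjusted p under 0.05, and their median was 0.02. Ret, the kinase that GFRA co-receptors present their ligands to, had 0.05 (adjusted p = 0.768), Gfra1, the co-receptor of GDNF itself, -0.07 (adjusted p = 0.822), and Ncam1, an alternative signalling partner, 0.02 (adjusted p = 0.868). Nrtn, the ligand that GFRA2 prefers, had 0.02 (adjusted p = 0.914).

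Of 10 proliferation genes 0 passed by limma in the averaged effect, where 1.71% of all genes passed. At an unadjusted p under 0.05 there were 2 of 10, against 12% of all genes, and the median difference of the 10 was 0.07. Markers of other cells that a pituitary holds gave 0 calls among 10 for the posterior lobe, 6 for melanotropes, 9 for pericytes and fibroblasts, 8 for macrophages and 5 for blood, with 0 at an unadjusted p under 0.05 in each of these lists. Somatotropes with 5 markers, lactotropes with 5 and thyrotropes with 4 also gave 0 calls, with 1, 2 and 1 at an unadjusted p under 0.05. The corticotrope markers gave 1 of 6, which was Neurod1, and 2 of 6 at an unadjusted p under 0.05. The gonadotrope markers gave 4 higher and 2 lower of 7, and the immediate early genes 4 higher of 16, against 1.42% of all genes higher and 0.287% lower. The 2 lower gonadotrope genes, Nr5a1 and Foxl2, lost their calls without animal 4, and Foxl2 also without animal 1 (highest adjusted p = 0.0571 and 0.0589). Both calls were also lost without the filter on low values (limma adjusted p = 0.0645 and 0.0543). In females alone, where 0.0993% of all genes passed, Fshb was the one list gene that did. In males alone, where 0.496% of all genes passed, Krt18, Neurod1, Fshb, Gnrhr, Emcn, Atf3, Nr4a3 and Klf10 did, all higher with GnRH. Of these 8 male calls, that of Fshb held under every alternative run, and the other 7 were lost without the filter on low values, with adjusted p between 0.0510 and 0.119. The male call of Emcn was also lost on leaving out any 1 of 9 of the 14 males (highest adjusted p = 0.119) and with the sexes fitted separately (adjusted p = 0.0594). That of Klf10 was lost without animal 13, 14 or 17 (highest adjusted p = 0.0735), and that of Gnrhr without animal 14 or 16 (highest adjusted p = 0.0703). That of Atf3 was lost without animal 12 or 14 (highest adjusted p = 0.0546) and with robust variance (adjusted p = 0.0610).

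**Figure D5:**
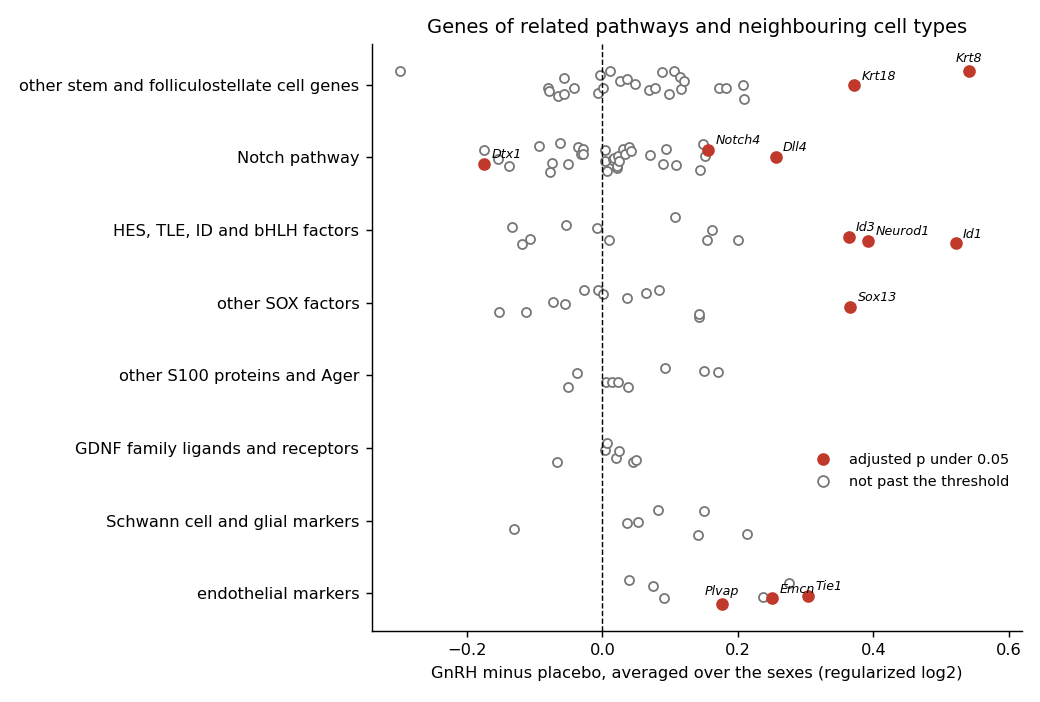
Difference between GnRH and placebo averaged over the sexes (x axis, regularized log2) for genes of 8 lists (rows), with genes past an adjusted p of 0.05 filled and named. The filled points are Krt8 and Krt18 among stem cell genes, Dll4, Notch4 and Dtx1 in the Notch pathway, Id1, Id3 and Neurod1 among bHLH-related genes, Sox13, and the endothelial Tie1, Emcn and Plvap.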

How the data were processed

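By its name, the authors' deposited table holds values of the regularized log transformation, that is, log2 values that the authors scaled and shrank. The submitters' processing notes name STAR, featureCounts, bcl2fastq and build mm10, and no version, strand setting or annotation is known here. The submitters state that the raw data were lost. Without counts the depth is unknown, and counting intervals are not given. Of 47069 rows, 13765 were at 0 throughout, and testing was limited to the 19141 whose mean reached 3.

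A linear model, in which every combination of sex and treatment had its own mean (25 libraries, 21 residual degrees of freedom) was fitted with limma 3.58.1 in R 4.3.3, with a variance trend on the mean, and gave 6 contrasts. Tests were two-sided and adjusted by Benjamini-Hochberg over all genes tested, at a threshold of 0.05. Nothing says that the samples of a group came from separate cohorts, so p-values measure the spread between these samples. Exact permutation tests were run within each sex over 462 arrangements in females and 3003 in males. Relations over animals used values less their group mean and 100000 permutations within groups, in Python 3.11.15 with SciPy 1.17.1. The labels name neither a batch nor a date.

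The 6 genes and the gene lists were chosen with earlier results of these data known, so no list is independent evidence. Named genes are the 6, every list gene past the threshold, and the 3 of smallest p in the averaged effect for each pathway list; Ednrb, Cdh1 and the other uncalled list genes beyond these were named after their values were seen, for their roles. A few list genes, 1 of them past the threshold, count in the lists but are not reported here or drawn. Gene models were matched by Ensembl identifier to GENCODE M21 for 99.4% of genes tested. Promoter windows and their sequences are from RefSeq, GRCm38.p6. The fit was tested on simulated data. Alternatives were other scalings, filters, variance models, library weights, separate fits by sex and leaving out each animal. The length index as a covariate was added after seeing the data.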

Additional observations from a re-analysis of the deposited data

Results flagged for a closer look

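Dixon's gap test was applied to 32 groups of values (24 of them the 6 genes in each group), and 4 had an end value farther from the others than its 95% limit. Chance gives about 1 in 20 such groups. Sox2 was 8.95 in GnRH male 24, the lowest of all 25 animals, where the other 7 GnRH males lay between 9.39 and 9.72. S100b was 6.21 in GnRH female 6, where the other 5 GnRH females lay between 4.99 and 5.29. S100b was 4.92 in placebo male 15, where the other 5 placebo males lay between 5.10 and 5.17. The mean of the Schwann cell and glial markers was 8.36 in placebo female 5, where the other 4 placebo females lay between 7.11 and 7.34.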

How the results depend on the processing

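No paired analysis was possible because no replicate number is shared between groups and nothing in the labels pairs the animals. Over 894 alternative values of the 6 genes, 849 kept their direction and their side of the threshold, 0 newly passed it (lowest adjusted p = 0.241), and 45 had the opposite sign. The main values behind those 45 were 16, none larger than 0.163 in size. With the length index as a covariate the sign turned for S100b (-0.0170) and Gfra2 (0.00887) in females, for the difference between the sexes of Sox2 (-0.00360), Notch2 (-0.0526) and Gfra2 (-0.0472), and for Notch2 in males against females with GnRH (-0.00205). Leaving out 1 animal at a time, differences with a turned sign ran from -0.148 to 0.119 for S100b in females, -0.0399 to 0.0938 for S100b averaged over the sexes and -0.00815 to 0.0972 for Hes1 in males. For the male minus the female effect they ran from -0.0259 to 0.115 for Sox2, -0.136 to 0.00165 for Sox9, -0.0508 to 0.217 for S100b, -0.0220 to 0.156 for Notch2 and -0.0316 to 0.112 for Gfra2. For males minus females with GnRH they ran from -0.231 to 0.0145 for S100b and -0.00626 to 0.132 for Gfra2, and with placebo from -0.118 to 0.0192 for Sox9, -0.0475 to 0.0539 for Hes1, -0.0361 to 0.0884 for Notch2 and -0.0322 to 0.0884 for Gfra2. Ncam1, averaged, ran from -0.00680 to 0.0427. The correlation of Sox2 with S100b was 0.0189 with group means kept. The number of related pairs among the 6 genes was 1, and 0 without the 2 farthest animals. The cause was not tested in any of these cases. Genes called in females were 19, with 7 without the filter, 12 with array weights, 43 with the length index and 4 to 67 with 1 animal left out; in males they were 95, with 42, 126, 158 and 46 to 153 under the same settings. S100b has no value at a minimum mean of 6, and the separate fits give no contrast between the sexes.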
